A study of Homo sapiens with 118 samples.

Results

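Tacedinaline, an inhibitor of histone deacetylases of the benzamide type, was compared between its middle concentration, C3 (10.29 µM), and its lowest concentration, C1 (1.143333 µM), in differentiated HepaRG cells after 72 hours of exposure. Every library labelled with either group was used, 3 at C3 and 3 at C1, so the comparison held 6 of the 118 libraries of the series. HepaRG is an established human liver cell line, and its differentiated cultures hold hepatocyte-like cells beside biliary-like cells. The series exposed these cells to 8 histone deacetylase inhibitors at 5 concentrations each, with the chemical renewed daily, and profiled their lysates with TempO-Seq, an assay that ligates pairs of probes on their target transcripts and counts the ligated pairs. Both groups were on 1 plate and had the same schedule, so the labels separate them by concentration alone. Replicates 1, 2 and 3 were, per the labels, 3 batches of the same cell line, so the p-values below describe the spread between batches of 1 line. Solvent controls were not used here, and a change already present at C1 is not seen in this comparison.

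Histone deacetylases remove acetyl groups from lysines of histones and other proteins. The class I enzymes HDAC1, HDAC2 and HDAC3 do so within corepressor complexes that keep genes silent, and benzamides bind the zinc in their active site. Hepatocytes devote much of their transcript pool to secreted plasma proteins and to enzymes of drug, bile acid, amino acid and lipid metabolism, a programme maintained by transcription factors such as HNF4A, the FOXA proteins and nuclear receptors.

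Total counts in the 6 libraries were 1243102, 3486880 and 4122567 at C1 and 2238735, 1814295 and 1564260 at C3, in the order of batches 1, 2 and 3. The C1 library of batch 1 was therefore the shallowest. Levels are in CPM, the count per 1000000 of the scaled library total, of a feature, which is a probe named by its gene. At least 5 counts were seen for 10901 to 13171 features in each library. The hepatocyte markers fixed for this work summed to between 41136 and 56005 CPM at C1 and to between 14976 and 18720 CPM at C3, so the cells carried the hepatocyte transcripts their label calls for at both concentrations.

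Promoter sequences of 6 genes are shown first, to set liver genes that fell beside 2 genes of the widest rises. ALB, AFM, FABP1 and HAO2 fell, and GPR50 and MMP10 rose. They were chosen after their values had been seen. Each line gives the 250 bases before the start of the gene in GRCh38.p14, from RefSeq, written 5′ to 3′ on the strand of the gene.
ALB, chr4:73404037-73404286, plus strand: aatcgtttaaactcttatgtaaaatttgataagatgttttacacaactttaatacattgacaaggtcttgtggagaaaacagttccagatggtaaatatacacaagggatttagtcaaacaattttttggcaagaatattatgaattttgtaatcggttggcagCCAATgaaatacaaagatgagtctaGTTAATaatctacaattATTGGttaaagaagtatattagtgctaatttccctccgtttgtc
AFM, chr4:73481495-73481744, plus strand: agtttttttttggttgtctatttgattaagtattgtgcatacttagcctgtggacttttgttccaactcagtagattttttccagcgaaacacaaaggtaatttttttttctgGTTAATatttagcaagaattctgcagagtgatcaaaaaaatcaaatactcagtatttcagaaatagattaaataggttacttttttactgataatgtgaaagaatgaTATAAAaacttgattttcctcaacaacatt
FABP1, chr2:88128063-88128312, minus strand: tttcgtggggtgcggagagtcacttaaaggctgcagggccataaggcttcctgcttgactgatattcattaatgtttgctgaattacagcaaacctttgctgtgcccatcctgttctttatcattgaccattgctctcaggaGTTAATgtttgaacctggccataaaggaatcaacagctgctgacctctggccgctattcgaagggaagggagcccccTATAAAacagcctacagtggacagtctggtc
HAO2, chr1:119368535-119368784, plus strand: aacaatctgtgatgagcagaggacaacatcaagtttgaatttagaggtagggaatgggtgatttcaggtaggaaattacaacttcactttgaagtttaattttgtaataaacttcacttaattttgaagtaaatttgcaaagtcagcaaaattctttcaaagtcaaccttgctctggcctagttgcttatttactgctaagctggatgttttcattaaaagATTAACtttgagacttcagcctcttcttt
GPR50, chrX:151176334-151176583, plus strand: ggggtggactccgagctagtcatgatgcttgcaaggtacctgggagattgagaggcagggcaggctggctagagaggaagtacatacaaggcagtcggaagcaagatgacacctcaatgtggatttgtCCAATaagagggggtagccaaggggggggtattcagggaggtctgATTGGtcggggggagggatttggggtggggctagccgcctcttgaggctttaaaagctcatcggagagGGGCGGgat
MMP10, chr11:102780629-102780878, minus strand: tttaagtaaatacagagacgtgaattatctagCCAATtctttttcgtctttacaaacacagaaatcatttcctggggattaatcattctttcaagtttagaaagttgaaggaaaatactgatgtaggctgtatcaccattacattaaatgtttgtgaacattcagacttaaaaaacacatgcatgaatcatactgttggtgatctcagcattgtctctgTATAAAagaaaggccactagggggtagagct
Capitals mark matches on either strand to any of the motifs searched, none of which overlap in these windows. The first motif was GTTAAT, which occurs in many promoters of liver genes. The element bound by the general factor TBP was searched as TATAAA. The letters CCAAT, bound by NF-Y, were the third motif. Sites of the SP1 family were searched as GGGCGG. The last motif was TGAGTCA, bound by AP-1, which has no match in these windows. GTTAAT began 61 bases before the start in ALB, 137 in AFM and 108 in FABP1, and it lay on the opposite strand of HAO2, 29 bases before the start. It was not found in the windows of GPR50 and MMP10. Of all tested symbols with a promoter, 3.69% held GTTAAT, and most promoters found for falling symbols lacked it. The 6 windows were picked by hand and do not stand for the genes that fell or rose. Of the 27305 promoters in the table, 6.22% held GTTAAT, 11.1% TATAAA, 33.0% CCAAT, 42.3% GGGCGG and 4.16% TGAGTCA. A promoter was found for 79.0% of the symbols that rose and 77.1% of those that fell, under the 80% needed, so a comparison of motif shares between them is void.

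Between C1 and C3 the larger part of the features was not called, while many of the most abundant liver transcripts fell. Of 12461 features tested, 1483 were called (11.9%), a call being an adjusted p below 0.05 in edgeR together with a change of 1.5-fold or more. There were 678 rising features (5.44%) of 653 symbols and 805 falling features (6.46%) of 756 symbols. The median log2 change of all tested features was 0.0125. With library totals alone in place of TMM, the scaling of edgeR for differences in composition, the median moved to 0.154 and the calls split into 1071 rising and 634 falling, so the share of rising calls was 62.8% there against 45.7% here, and it was 53.8% with upper-quartile scaling. Without batch 2, 923 features were called, 387 rising and 536 falling.

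Falling features were the more abundant. Their CPM summed to between 245008 and 292066 at C1 and to between 102736 and 114423 at C3. Rising features summed to between 43811 and 45735 CPM at C1 and to between 85773 and 89999 CPM at C3. Of the 50 features with the highest mean at C1, 34 fell and 3 rose. The median log2 change was 1.16 among the rising and -1.26 among the falling features. A fold of at least 8 was fitted for 90 rising features, of which 32 had over 3 counts in some C1 library, and for 77 falling features, of which 51 had over 3 counts in some C3 library. All 3 batches moved the same way in 669 of the rising and 802 of the falling features. The groups did not overlap in 656 rising and 796 falling features, against 33.4% of all tested features. The counts of batch agreement and of overlap come from the libraries that made the calls. They are largely set by the calls and give no separate support for them.

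**Figure D1:**
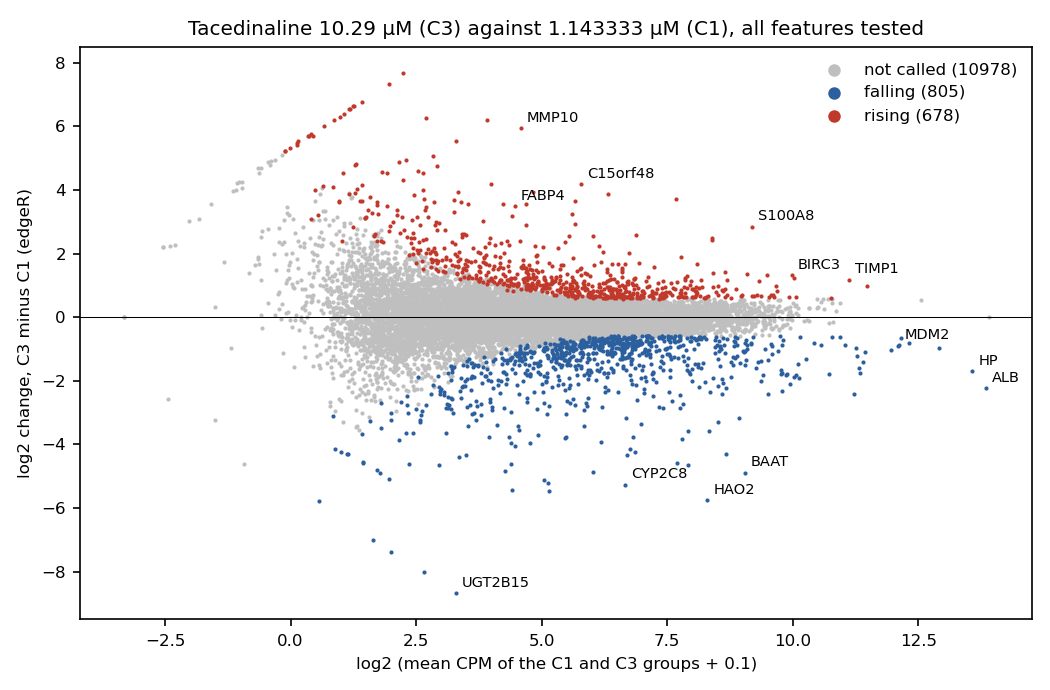
Each point is a tested feature, with the log2 of its mean CPM over both groups on the x axis and its fitted log2 change from C1 to C3 on the y axis. The abundant end at the right holds more falling features, among them ALB at -2.23 and HP at -1.70, and the straight row of points at the upper left holds features with no or almost no counts at C1.

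Genes of secreted plasma proteins fell together. Of 31 features of plasma proteins and carriers, 23 fell and the other 8 were not called, with a median log2 change of -1.80. ALB, albumin, the main protein of plasma, had 29581, 22616 and 20466 CPM at C1 and 5526, 5717 and 4245 CPM at C3. It fell 4.69-fold (log2 change -2.23, SE 0.14, edgeR adjusted p = 2.77e-16), and its libraries at C3 all lay far below those at C1. HP, haptoglobin, which binds free haemoglobin, had 20750.1, 18634 and 16328 CPM at C1 and 4843, 6811 and 5536 CPM at C3 (log2 change -1.70, SE 0.11, edgeR adjusted p = 6.06e-16). TF, transferrin, the iron carrier, had 4514, 3862 and 3566 CPM at C1 and 689, 889 and 686 CPM at C3 (log2 change -2.40, SE 0.15, edgeR adjusted p = 3.05e-16). ORM1, an acute phase glycoprotein, had 4392, 3481 and 4132 CPM at C1 and 1148, 1281 and 1159 CPM at C3 (log2 change -1.74, SE 0.15, edgeR adjusted p = 5.2e-12). The groups of these 4 genes did not overlap. ITIH2 and ITIH4, inter-alpha-trypsin inhibitor heavy chains, fell 11.8-fold and 5.35-fold. AFM, afamin, a vitamin E carrier, was among the 10 widest falls, with 87.8, 59.8 and 61.4 CPM at C1 and 3.48, 0 and 0.617 CPM at C3 (log2 change -5.46, SE 0.53, edgeR adjusted p = 8.33e-11). Its C3 value rests on 9 counts, and the ratio of summed counts was 41.2 with a 95% exact counting interval of 21.6 to 90.7. SERPINA1 and TTR moved least among the falling members, with log2 changes of -0.65 and -0.91.

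Coagulation and complement factors held the highest share of falling features among the lists of over 10 features. Of 32 features, 27 fell and the other 5 were not called, with a median log2 change of -1.89. FGB, the fibrinogen beta chain, had 6017, 5046 and 4903 CPM at C1 and 2487, 2985 and 2401 CPM at C3 (log2 change -1.02, SE 0.12, edgeR adjusted p = 7.28e-09). C5, a complement component, had 667, 633 and 535 CPM at C1 and 159, 172 and 141 CPM at C3 (log2 change -1.95, SE 0.16, edgeR adjusted p = 3.56e-13). CPB2, a carboxypeptidase that slows the breakdown of clots, fell from a mean of 630.0 CPM to 148 CPM, and CFB, complement factor B, fell from a mean of 1612 CPM to 580.4 CPM. FGB itself fell 2.03-fold. CFHR3, a relative of complement factor H, was among the widest falls, with 105, 42.5 and 44.1 CPM at C1 and 1.74, 3.25 and 0 CPM at C3 (log2 change -5.13, SE 0.56, edgeR adjusted p = 1.63e-09). Reads of CFHR3 can be shared with its near-identical paralogs, so this value is uncertain as to the gene. In apolipoproteins and lipoprotein assembly, 10 of 16 features fell and 6 were not called, with a median of -1.67. APOB, the structural protein of very low density lipoprotein, had 4366, 3859.7 and 3575 CPM at C1 and 1505, 1595 and 1337 CPM at C3 (log2 change -1.41, SE 0.12, edgeR adjusted p = 2.27e-12). APOC1, a small apolipoprotein, fell 4.63-fold.

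**Figure D2:**
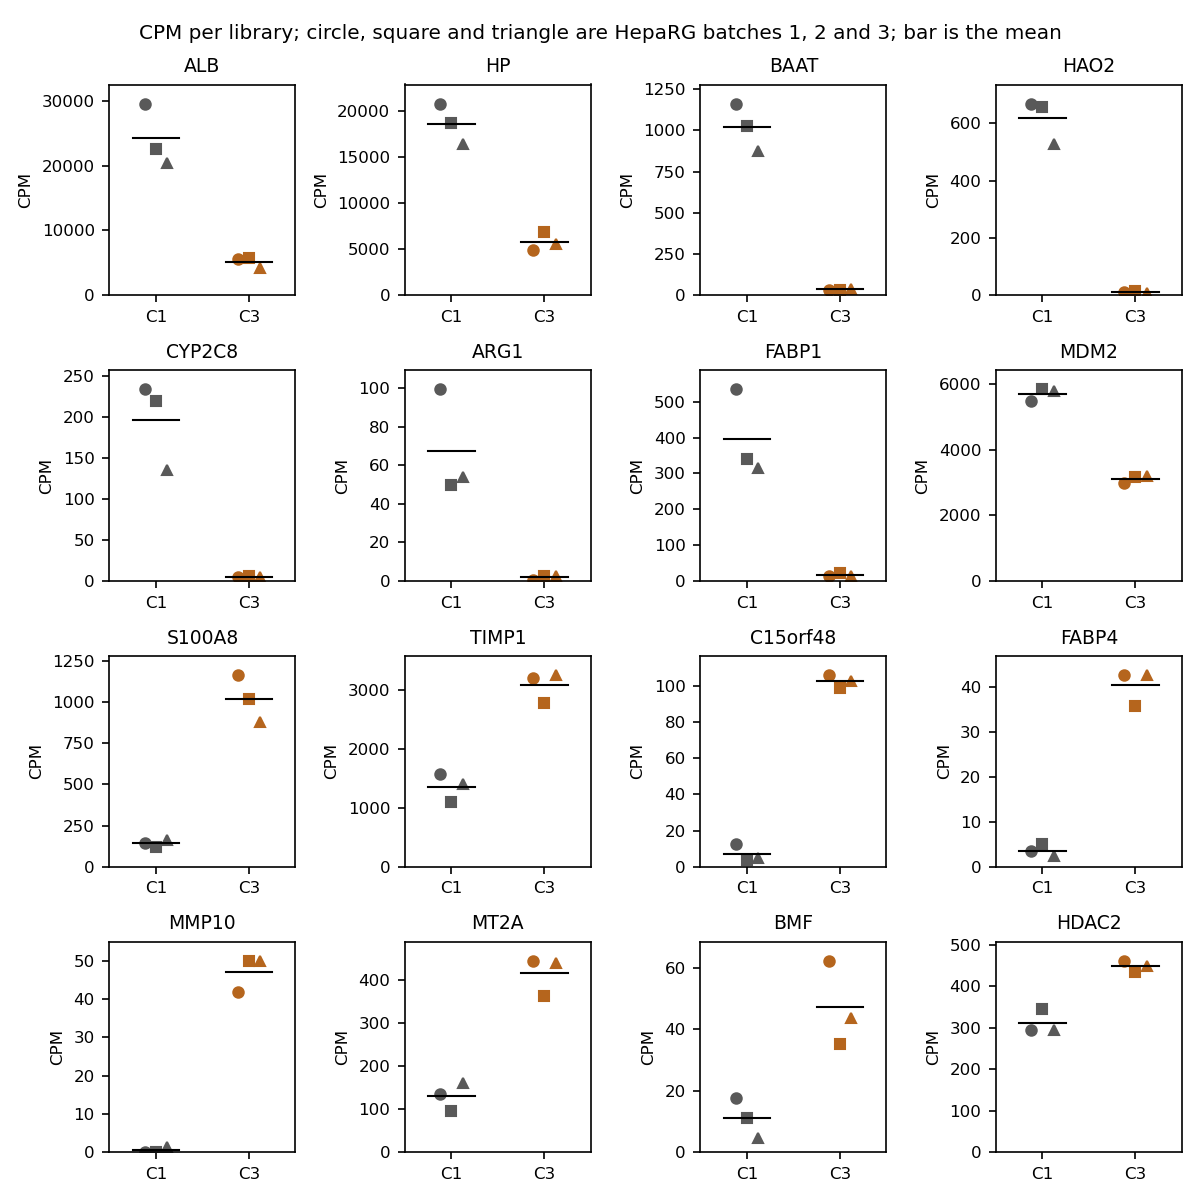
CPM of 16 features in the 6 libraries, with 1 panel per feature, C1 and C3 on the x axis, a symbol per batch and a bar at the group mean, each axis starting at 0. ALB, HP, BAAT, HAO2, CYP2C8, ARG1, FABP1 and MDM2 lie lower at C3 and S100A8, TIMP1, C15orf48, FABP4, MMP10, MT2A and BMF higher, with no overlap of the groups, while HDAC2 lies higher by less than 1.5-fold.

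Many drug-metabolising enzymes fell. Among 19 cytochrome P450 features, 13 fell, 1 rose and 5 were not called, with a median of -1.65. CYP2C8, which oxidises many drugs, had 234, 219.5 and 135 CPM at C1 and 5.22, 5.42 and 4.32 CPM at C3 (log2 change -5.27, SE 0.30, edgeR adjusted p = 2.09e-17), a fall of 38.5-fold with no overlap. The CYP2C genes are close paralogs, and probes may share reads between them. CYP1A1, which the aryl hydrocarbon receptor switches on, was the exception, with 13.3, 13.9 and 14.5 CPM at C1 and 44.3, 33.6 and 34.5 CPM at C3 (log2 change 1.42, SE 0.31, edgeR adjusted p = 0.00101). RDH16, a retinol dehydrogenase outside these lists, was also among the 10 widest falls, with 156, 122 and 95.8 CPM at C1 and 3.91, 5.96 and 2.47 CPM at C3 (log2 change -4.88, SE 0.38, edgeR adjusted p = 2.73e-13).

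Conjugating enzymes of phase II gave 17 falling, 2 rising and 14 uncalled features of 33, with a median of -1.07. UGT2B15, a glucuronosyltransferase, had 24.8, 10.2 and 22.9 CPM at C1 and 0, 0 and 0 CPM at C3, that is no count at C3. Its fall was at least 12.1-fold against 3 counts per library (log2 change -8.67, SE 1.30, edgeR adjusted p = 2.92e-06), and the fitted value itself depends on the prior count. GLYAT, which conjugates glycine, had 170.2, 151 and 88.2 CPM at C1 and 6.09, 14.1 and 6.78 CPM at C3 (log2 change -3.92, SE 0.32, edgeR adjusted p = 5.26e-13), and GSTA1, a glutathione transferase, had 1162, 1014 and 1011 CPM at C1 and 331, 312 and 257 CPM at C3 (log2 change -1.82, SE 0.15, edgeR adjusted p = 2.28e-12). Among the rising members, UGT2B11 had 7.98, 6.78 and 5.86 CPM at C1 and 24.8, 15.2 and 20.4 CPM at C3 (log2 change 1.58, SE 0.46, edgeR adjusted p = 0.0136) and GSTA4 had 55.9, 82.6 and 57.4 CPM at C1 and 95.2, 113 and 110.4 CPM at C3 (log2 change 0.68, SE 0.19, edgeR adjusted p = 0.0119). These rising calls were not stable to leaving out libraries. Without batch 1 the adjusted p of UGT2B11 was 0.118, and without batch 3 that of GSTA4 was 0.152. The UGT2B and GSTA genes are families of near-identical sequence, so the split of reads among their members is uncertain.

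Bile acid synthesis, the route by which the liver turns cholesterol into bile acids, had 8 falling features of 14, with the other 6 uncalled and a median of -0.94. BAAT, which joins bile acids to glycine or taurine, had 1162, 1025 and 872 CPM at C1 and 33.9, 30.4 and 39.5 CPM at C3. That was a fall of 29.5-fold (log2 change -4.88, SE 0.20, edgeR adjusted p = 1.99e-22), with C3 values between 30.4 and 39.5 CPM. CYP7A1, the first and rate-limiting enzyme of the pathway, had 69.2, 64.1 and 36.2 CPM at C1 and 4.78, 6.50 and 1.23 CPM at C3 (log2 change -3.70, SE 0.44, edgeR adjusted p = 1.63e-08). SCP2, a sterol carrier, fell less, 2.79-fold. Hepatic transporters had 17 falling, 1 rising and 11 uncalled features of 29, with a median of -1.46. SLCO1B1 and SLCO2B1, uptake transporters of organic anions, fell 10.8-fold and 10.3-fold, and ABCC2, which exports conjugates into bile, fell 4.03-fold. ABCG5, part of the sterol exporter, had 19.5, 9.56 and 8.16 CPM at C1 and 0, 0 and 0 CPM at C3, a fall of at least 7.79-fold against 3 counts per library. SLC22A7, an organic anion transporter, had 64.7, 32.1 and 26.3 CPM at C1 and 0, 0.542 and 2.47 CPM at C3 in its most changed probe (log2 change -5.42, SE 0.70, edgeR adjusted p = 1.56e-07). ABCC4, an exporter of the opposite, blood-facing membrane, rose, with 144, 121 and 117 CPM at C1 and 204, 242 and 188 CPM at C3 (log2 change 0.75, SE 0.16, edgeR adjusted p = 0.0005), and without batch 2 its adjusted p was 0.0749.

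Amino acid and glucose metabolism moved in part. Of 25 features of the urea cycle and amino acid breakdown, 9 fell and 16 were not called, with a median of -0.92. ARG1, arginase, which releases urea, had 99.3, 49.6 and 53.8 CPM at C1 and 0.435, 2.71 and 2.47 CPM at C3 (log2 change -5.20, SE 0.45, edgeR adjusted p = 3.1e-12). Batch 1 held the highest C1 value of ARG1 and the lowest C3 value. AGXT, which removes glyoxylate, had 762, 662 and 568 CPM at C1 and 53.5, 82.4 and 68.5 CPM at C3 (log2 change -3.29, SE 0.19, edgeR adjusted p = 5.15e-17), and HPD, of tyrosine breakdown, fell 7.21-fold. Of 14 gluconeogenesis and glycogen features, 4 fell, 1 rose and 9 were not called, with a median of -0.56. GCKR, which holds glucokinase in the nucleus, and GYS2, the liver glycogen synthase, fell 4.88-fold and 7.09-fold. PPARGC1A, a coactivator of gluconeogenic genes, rose, with 135, 116 and 100.4 CPM at C1 and 193, 175 and 169.6 CPM at C3 (log2 change 0.63, SE 0.18, edgeR adjusted p = 0.0105), a call lost in 5 of the 9 settings that left out a library or batch (adjusted p 0.0894 without batch 2).

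Fatty acid oxidation and ketogenesis had 14 falling, 1 rising and 9 uncalled features of 24, with a median of -0.77. HAO2, a peroxisomal hydroxyacid oxidase, had 669, 657 and 528 CPM at C1 and 9.56, 15.7 and 9.25 CPM at C3. It fell 53.6-fold (log2 change -5.74, SE 0.23, edgeR adjusted p = 1.99e-22), with C3 libraries between 9.25 and 15.7 CPM. FABP1, the liver fatty acid binding protein, had 535, 340.1 and 315 CPM at C1 and 13.5, 22.8 and 13.0 CPM at C3 (log2 change -4.58, SE 0.25, edgeR adjusted p = 2.64e-18). PDK4, a kinase that shuts pyruvate dehydrogenase, was the member that rose, with 78.9, 71.2 and 53.8 CPM at C1 and 152, 117 and 129.5 CPM at C3 (log2 change 0.99, SE 0.19, edgeR adjusted p = 0.000109).

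Cholesterol synthesis and uptake had 13 falling and 14 uncalled features of 27, with a median of -0.74. MSMO1, a demethylase of the pathway, had 4015, 3201 and 3158 CPM at C1 and 1632, 1478 and 1379 CPM at C3 (log2 change -1.21, SE 0.11, edgeR adjusted p = 1.86e-11). INSIG1, the sterol-sensing anchor of SREBP, and HMGCS1, an early enzyme, fell 2.68-fold and 2.12-fold. Lipogenesis and lipid droplets gave 4 falling, 3 rising and 15 uncalled features of 22, with a median of -0.29. The shares were 18.2% falling and 13.6% rising, against 6.46% and 5.44% of all features tested. FASN, fatty acid synthase, had 718, 712 and 675 CPM at C1 and 387, 351 and 415 CPM at C3 (log2 change -0.87, SE 0.15, edgeR adjusted p = 3.61e-05). FABP4, a fatty acid binding protein usual in adipocytes, had 3.55, 4.93 and 2.29 CPM at C1 and 42.6, 35.8 and 42.6 CPM at C3 (log2 change 3.50, SE 0.31, edgeR adjusted p = 6.91e-12). GPAM, which starts glycerolipid synthesis, had 100.2, 125 and 90.7 CPM at C1 and 269, 229.8 and 205 CPM at C3 (log2 change 1.15, SE 0.18, edgeR adjusted p = 4e-06), and PLIN2, the coat of lipid droplets, had 78.9, 67.5 and 61.2 CPM at C1 and 165, 151 and 160.3 CPM at C3 (log2 change 1.21, SE 0.19, edgeR adjusted p = 6.57e-06). CIDEB and DGAT1 fell, 7.23-fold and 1.63-fold. Without batch 2 the adjusted p was 0.0869 for CIDEB and 0.178 for DGAT1.

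Transcription factors of hepatocytes fell in part. Of 23 features 6 fell and 17 were not called, with a median of -0.79. NR1I2, the xenobiotic receptor PXR, had 22.2, 19.1 and 23.5 CPM at C1 and 3.04, 2.71 and 1.85 CPM at C3 (log2 change -3.04, SE 0.53, edgeR adjusted p = 3.71e-05). NR1H4, the bile acid receptor FXR, had 63.8, 57.3 and 42.1 CPM at C1 and 15.2, 16.8 and 7.40 CPM at C3 (log2 change -2.02, SE 0.34, edgeR adjusted p = 1.9e-05), and NR1I3, the receptor CAR, had a log2 change of -2.42 in the called probe. PROX1, a homeobox factor of liver and lymphatic cells, had 151, 125 and 123 CPM at C1 and 42.6, 59.6 and 41.9 CPM at C3 (log2 change -1.46, SE 0.23, edgeR adjusted p = 8.89e-06), and FOXA1 had a log2 change of -1.84. HNF4A was not called. It had 15.1, 18.5 and 39.5 CPM at C1 and 11.3, 14.6 and 11.7 CPM at C3 (log2 change -0.99, SE 0.49, edgeR adjusted p = 0.196), and a single C1 library, that of batch 3, lay far above the other two. Fitted on the 6 libraries alone, HNF4A passed the threshold at a log2 change of -1.02.

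**Figure D3:**
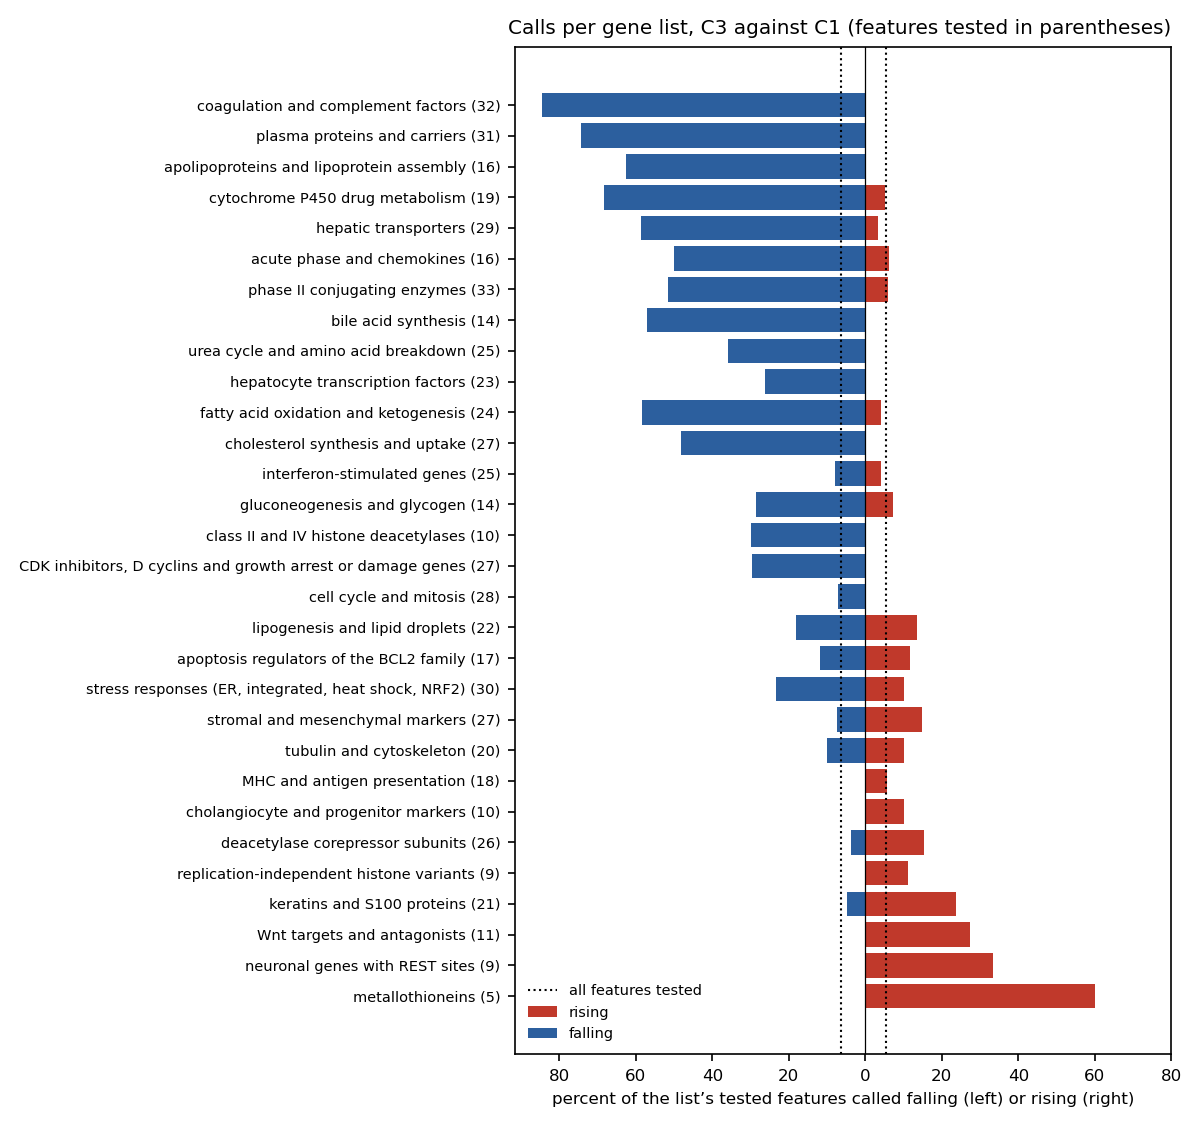
Bars give the percent of each list's tested features that were called falling (left) or rising (right), and dotted lines give the same over all features tested, 6.46% and 5.44%. Lists are ordered by their median log2 change, from metallothioneins at 1.48 to coagulation and complement factors at -1.89, and only lists with at least 5 tested features are drawn.

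The widest rises were of genes with little or no signal at C1, which a ranking by fold favours. Among called features of at least 10 CPM at C3 and the same direction in all 3 batches, the 10 with the largest fitted rise were SYT11, GPR50, MMP10, DNAI1, CCR4, CCK, SERPINI1, SVOPL, TEX19 and C15orf48. MMP10, stromelysin 2, a protease of the cell matrix, had 0, 0 and 1.53 CPM at C1 and 41.7, 49.9 and 50.0 CPM at C3 (log2 change 5.95, SE 0.47, edgeR adjusted p = 2.44e-13), and all 3 C3 libraries lay above 41 CPM. GPR50, a relative of the melatonin receptors, had 0, 0 and 0.765 CPM at C1 and 30.0, 10.3 and 48.1 CPM at C3, or 3 counts summed over the C1 libraries and 166 over the C3 libraries, a ratio of 79.6 with a 95% exact counting interval of 26.8 to 390. SYT11, a synaptotagmin of vesicle traffic, had 0, 0.308 and 0 CPM at C1 and 11.3, 16.3 and 10.5 CPM at C3, or 1 count summed over the C1 libraries and 73 over the C3 libraries, a ratio of 105 with a 95% exact counting interval of 18.3 to 4200. These 3 genes had no count in at least 1 C1 library, so their folds are loosely bounded from above. CCK, the gut and brain hormone cholecystokinin, had 0.887, 0.617 and 0.255 CPM at C1 and 13.5, 14.1 and 15.4 CPM at C3, a ratio of 29.5 (95% exact counting interval 11.1 to 111). DNAI1, an axonemal dynein chain of cilia, had 0, 0.925 and 0 CPM at C1 and 12.2, 23.3 and 21.6 CPM at C3, and SERPINI1, neuroserpin, had 1.77, 0.308 and 0 CPM at C1 and 6.52, 10.8 and 14.8 CPM at C3. CCR4, a chemokine receptor of T cells, had 0.887, 0.308 and 0.255 CPM at C1 and 25.6, 10.8 and 4.32 CPM at C3, so its C3 libraries spread widely, as did those of SVOPL with 0, 0 and 1.02 CPM at C1 and 11.3, 1.08 and 23.4 CPM at C3. TEX19, a germline gene, had 2.66, 0.925 and 1.78 CPM at C1 and 23.5, 19.5 and 46.9 CPM at C3 (log2 change 4.18, SE 0.45, edgeR adjusted p = 1.11e-09). C15orf48 had the firmest of these values, with 12.4, 3.70 and 4.59 CPM at C1 and 106, 99.2 and 103 CPM at C3 (log2 change 4.18, SE 0.30, edgeR adjusted p = 2.45e-14).

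Abundant rising features included TIMP1, ANXA1, BIRC3, S100A8 and GOPC. S100A8, a calcium-binding protein of myeloid cells and stressed epithelia, had 144, 118 and 164 CPM at C1 and 1164, 1017 and 882 CPM at C3 (log2 change 2.84, SE 0.16, edgeR adjusted p = 7.74e-18). Its partner S100A9 had 94.9, 105 and 105 CPM at C1 and 493, 627 and 597 CPM at C3 (log2 change 2.48, SE 0.15, edgeR adjusted p = 3.62e-17). Both rose in every batch without overlap. TIMP1, an inhibitor of matrix proteases, had 1575, 1092 and 1395 CPM at C1 and 3189, 2779 and 3244 CPM at C3 in its brighter probe (log2 change 1.18, SE 0.14, edgeR adjusted p = 1.96e-08), and the second probe rose 2.53-fold. BIRC3, an inhibitor of cell death, had 591, 631 and 513 CPM at C1 and 1483, 1389.8 and 1433 CPM at C3 (log2 change 1.31, SE 0.11, edgeR adjusted p = 2.62e-12). ANXA1, a phospholipid-binding annexin, rose 2.37-fold and GOPC, a Golgi scaffold protein, rose 2.21-fold. In the list of keratins and S100 proteins, 5 of 21 features rose, 1 fell and 15 were not called, with a median of 0.35. The shares were 23.8% rising and 4.76% falling, against 5.44% and 6.46% of all features tested. S100P had no count at C1 and 6.96, 1.08 and 5.55 CPM at C3, at least 3.12-fold higher against 3 counts per library. S100A2, in contrast, fell, with 401, 325 and 445 CPM at C1 and 69.6, 56.4 and 47.5 CPM at C3 (log2 change -2.74, SE 0.21, edgeR adjusted p = 1.1e-13).

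Metallothioneins, small proteins that bind zinc and copper, gave 3 rising and 2 uncalled features of 5, with a median of 1.48. MT2A had 135, 95.6 and 161 CPM at C1 and 444, 363 and 440.3 CPM at C3 (log2 change 1.67, SE 0.17, edgeR adjusted p = 2.03e-10), MT1M had 23.9, 15.4 and 35.4 CPM at C1 and 68.7, 43.9 and 84.5 CPM at C3 (log2 change 1.37, SE 0.24, edgeR adjusted p = 3.99e-05) and MT1X had 0, 1.23 and 5.35 CPM at C1 and 9.56, 15.7 and 9.87 CPM at C3 (log2 change 2.07, SE 0.53, edgeR adjusted p = 0.00456). The order of the batches was alike at both concentrations in MT1M, batch 2 being lowest and batch 3 highest. The MT1 genes are near copies of each other, so reads may be shared, and MT1X was not called without batch 2 (adjusted p 0.229). Neuronal genes with sites for the repressor REST, which recruits deacetylases, were mostly below the filter, with 31 of 40 features untested. Of the 9 tested 3 rose and 6 were not called, with a median of 1.40, or 0.83 with features of at most 3 counts per library set at their bound. The filter used all 15 tacedinaline libraries, so a gene silent at C1 was tested only if it had counts at higher concentrations. This selection favours rises, so the median and the share of rises do not stand for the whole list. SCG2, a secretogranin of secretory granules, had 2.66, 2.77 and 0.510 CPM at C1 and 17.8, 25.5 and 19.1 CPM at C3 (log2 change 3.55, SE 0.44, edgeR adjusted p = 3.26e-08). REST itself was not called, at a log2 change of 0.08. HBG1, fetal globin, rose, with 1.77, 3.08 and 3.31 CPM at C1 and 41.7, 35.2 and 27.1 CPM at C3 (log2 change 3.55, SE 0.40, edgeR adjusted p = 5.59e-09), and it is near identical to HBG2.

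Wnt targets and antagonists gave 3 rising and 8 uncalled features of 11, with a median of 0.51. MYC, a growth-promoting transcription factor, had 117, 97.7 and 116 CPM at C1 and 197, 149 and 173 CPM at C3 (log2 change 0.66, SE 0.18, edgeR adjusted p = 0.00841). DKK1, a secreted Wnt antagonist, had 121, 91.9 and 119 CPM at C1 and 193, 157 and 186 CPM at C3 (log2 change 0.70, SE 0.17, edgeR adjusted p = 0.00258). LGR5, a receptor that strengthens Wnt signals, had 0, 1.85 and 0 CPM at C1 and 8.26, 4.34 and 11.1 CPM at C3 (log2 change 3.37, SE 0.91, edgeR adjusted p = 0.00795). Each of these calls was lost when some library or batch was left out, with adjusted p of up to 0.103 for MYC, without batch 1. The highest was 0.0627 for DKK1 without batch 2 and 0.186 for LGR5 without batch 3. AXIN2, a general Wnt target, was not called, at a log2 change of 0.46.

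Transcripts of the deacetylases were described next, since the enzymes are the targets of the chemical. None of the 4 class I enzymes was called by edgeR or by DESeq2, and 1 of them, HDAC2, had an unadjusted p under 0.05. HDAC1 had 15.1, 28.4 and 34.9 CPM at C1 and 26.5, 21.1 and 34.5 CPM at C3, with a log2 change of 0.00077 and an SE of 0.33, and its sign turned in several alternatives. HDAC2 had 293, 344 and 296 CPM at C1 and 461, 433 and 448 CPM at C3 (log2 change 0.52, SE 0.13, edgeR adjusted p = 0.00354), a fold of 1.44 that passed the p but not the fold threshold. It was called with upper-quartile scaling, at a log2 change of 0.59, and with library totals alone, at 0.66. It was also called without batch 2, at 0.63 (edgeR adjusted p = 0.0193), and without the C1 library of batch 2, at 0.61 (edgeR adjusted p = 0.00379). HDAC3 had 75.4, 54.6 and 59.9 CPM at C1 and 75.2, 81.3 and 80.2 CPM at C3 (log2 change 0.34, SE 0.19, edgeR adjusted p = 0.265), and HDAC8 had 32.8, 20.96 and 32.9 CPM at C1 and 16.1, 22.8 and 30.2 CPM at C3 (log2 change -0.33, SE 0.32, edgeR adjusted p = 0.577). The groups of HDAC1, HDAC3 and HDAC8 overlapped. Among class II and IV enzymes 3 of 10 features fell, and all 3 were probes of HDAC6, the cytoplasmic enzyme that deacetylates tubulin. The brightest had 718, 675 and 568 CPM at C1 and 245, 290.0 and 266 CPM at C3 (log2 change -1.29, SE 0.14, edgeR adjusted p = 1.44e-09), the others fell 1.93-fold and 2.21-fold, and the fourth HDAC6 probe tested was not called at -0.68. Without batch 3 the first of these weaker probes had an adjusted p of 0.0751, and without batch 1 the second had 0.312.

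Corepressor subunits gave 4 rising, 1 falling and 21 uncalled features of 26, with a median of 0.21. The shares were 15.4% rising and 3.85% falling, against 5.44% and 6.46% of all features tested. TBL1X, a subunit of the NCOR and SMRT complexes, had 113, 112 and 94.6 CPM at C1 and 178, 226 and 154 CPM at C3 (log2 change 0.81, SE 0.17, edgeR adjusted p = 0.000359). GPS2, of the same complexes, and SAP18, of the SIN3 complex, rose 1.53-fold and 2.02-fold. Neither call held in every left-out setting, with adjusted p of 0.199 for GPS2 without batch 1 and 0.1 for SAP18 without batch 3. CHD3, a remodeller of the NuRD complex, fell, with 73.6, 95.0 and 81.8 CPM at C1 and 37.8, 42.3 and 32.1 CPM at C3 (log2 change -1.16, SE 0.26, edgeR adjusted p = 0.00119). Among replication-independent histone variants, 1 of 9 features rose (11.1%, against 5.44% of all features tested). This was H2AFV, with 47.0, 20.3 and 49.4 CPM at C1 and 74.8, 62.3 and 79.6 CPM at C3 (log2 change 0.92, SE 0.24, edgeR adjusted p = 0.00657), and without batch 2 its adjusted p was 0.145. H1F0, the linker histone often used as a readout of deacetylase inhibition, was not called, with 18.6, 13.9 and 18.6 CPM at C1 and 27.4, 21.1 and 30.2 CPM at C3 (log2 change 0.63, SE 0.33, edgeR adjusted p = 0.224). CDKN1A, a cell cycle inhibitor known as a target of such chemicals, had too few counts to be tested.

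Cell cycle and mitosis genes gave 2 falling and 26 uncalled features of 28, with a median of -0.34. The 2 falling features were 7.14% of the list, near the 6.46% of all features tested that fell. TYMS, thymidylate synthase, had 659, 713 and 791 CPM at C1 and 234, 267 and 297 CPM at C3 (log2 change -1.44, SE 0.15, edgeR adjusted p = 4.11e-10), and MKI67, a proliferation marker, had 184, 226 and 256 CPM at C1 and 121, 153 and 149 CPM at C3 (log2 change -0.67, SE 0.18, edgeR adjusted p = 0.00705). MKI67 was not called without the C3 library of batch 1 (adjusted p 0.0792). Of 27 features of CDK inhibitors, D cyclins and growth arrest or damage genes, 8 fell and 19 were not called, with a median of -0.36. Falling features included 3 probes of MDM2 and those of FAS and GADD45A. MDM2, a ubiquitin ligase, had 5479, 5844 and 5787 CPM at C1 and 2982, 3165 and 3194 CPM at C3 (log2 change -0.87, SE 0.10, edgeR adjusted p = 1.56e-08). FAS, a death receptor, had 155, 184 and 194 CPM at C1 and 86.5, 71.0 and 91.9 CPM at C3 (log2 change -1.10, SE 0.18, edgeR adjusted p = 1.51e-05).

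Apoptosis regulators of the BCL2 family gave 2 rising, 2 falling and 13 uncalled features of 17. The shares were 11.8% rising and 11.8% falling, against 5.44% and 6.46% of all features tested. BMF, a BH3-only activator of cell death, had 17.7, 11.1 and 4.59 CPM at C1 and 62.2, 35.2 and 43.8 CPM at C3 (log2 change 2.25, SE 0.36, edgeR adjusted p = 7.02e-06). BCL2L11, which encodes BIM, rose in 1 of its 4 tested probes, 2.05-fold. BAX, a pore former, fell 1.53-fold and BID fell 2.51-fold. Of these only BMF kept its call in every left-out setting. The adjusted p without batch 2 was 0.0805 for BCL2L11. For BAX without batch 2 the adjusted p was 0.0437 and the log2 change -0.56, under the fold threshold, and for BID without batch 1 the adjusted p was 0.435. BID lost its call in all 9 of these settings.

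Stress response genes moved in both directions, with 3 rising, 7 falling and 20 uncalled features of 30 and a median of -0.23. The shares were 10% rising and 23.3% falling, against 5.44% and 6.46% of all features tested. SRXN1, sulfiredoxin, which repairs oxidised peroxiredoxins, had 146, 145 and 177 CPM at C1 and 351, 299.8 and 388 CPM at C3 (log2 change 1.14, SE 0.14, edgeR adjusted p = 1.74e-08). TXNRD1, thioredoxin reductase, rose 1.82-fold, whereas both probes of GCLM, a subunit of the enzyme that starts glutathione synthesis, fell 1.87-fold and 1.80-fold. All 3 genes are usually grouped as NRF2 targets. TRIB3, a pseudokinase of the integrated stress response, had 282, 249 and 259 CPM at C1 and 115, 131 and 92.5 CPM at C3 (log2 change -1.22, SE 0.16, edgeR adjusted p = 2.52e-07). HSPA5, DNAJB9, XBP1 and DDIT3, of the response to unfolded proteins in the endoplasmic reticulum, fell with log2 changes of -0.63, -0.84, -1.996 and -1.05, the last in 1 of 2 probes. HSPA1B rose 1.65-fold, but it shares sequence with HSPA1A and was not called without batch 1 (adjusted p 0.312).

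Acute phase genes and chemokines gave 8 falling, 1 rising and 7 uncalled features of 16, with a median of -1.17, or -0.99 with a feature of at most 3 counts per library set at its bound. CXCL2, a chemokine for neutrophils, had 666, 565 and 561 CPM at C1 and 126, 148 and 129.5 CPM at C3 in its brighter probe (log2 change -2.15, SE 0.16, edgeR adjusted p = 8.97e-14). LBP, which binds bacterial lipopolysaccharide, had 1982, 1823 and 1471 CPM at C1 and 635, 784 and 697 CPM at C3 (log2 change -1.32, SE 0.13, edgeR adjusted p = 8.78e-11). CCL20, a chemokine for dendritic and T cells, rose, with 11.5, 6.47 and 8.16 CPM at C1 and 16.5, 21.1 and 24.1 CPM at C3 (log2 change 1.32, SE 0.29, edgeR adjusted p = 0.00111), and without batch 2 its adjusted p was 0.0619. SAA2, a serum amyloid, had a mean of 4905 CPM at C1 and 7076 CPM at C3, a log2 change of 0.53 that lay under the fold threshold. Interferon-stimulated genes gave 1 rising, 2 falling and 22 uncalled features of 25, with a median of -0.71. These were 4% rising and 8% falling, against 5.44% and 6.46% of all features tested. At an unadjusted p under 0.05 in edgeR, 6 were lower and 3 higher. IFI6 had 93.1, 93.1 and 90.5 CPM at C1 and 155, 172 and 165 CPM at C3 (log2 change 0.83, SE 0.16, edgeR adjusted p = 0.000142), and GBP1 had 185, 146 and 110.1 CPM at C1 and 64.3, 39.0 and 45.6 CPM at C3 (log2 change -1.54, SE 0.22, edgeR adjusted p = 1.14e-06). OAS3 fell 1.87-fold in 1 of 2 probes and lost that call in 8 of 9 left-out settings. In MHC and antigen presentation HLA-E alone was called, of 18 features (5.56%), near the 5.44% of all features tested that rose. It rose 1.82-fold and was not called without batch 2 (edgeR adjusted p 0.363). Among 20 tubulin and cytoskeleton features, 2 rose, both of them probes of TUBA1A, and 2 fell, GSN (2.73-fold) and TUBA1B (2.09-fold). The shares were 10% rising and 10% falling, against 5.44% and 6.46% of all features tested. The TUBA1A probe with the wider fitted change had at most 3 counts in each C1 library and overlapping groups, and its call was lost without batch 2 (adjusted p 0.322), as was that of the other probe without the C1 library of batch 3 (adjusted p 0.0881).

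Markers of other cell types were measured beside these results. In the list of cholangiocyte and progenitor markers 1 of 10 features rose (10%, against 5.44% of all features tested). This was SPP1, osteopontin, with 4.43, 6.78 and 6.12 CPM at C1 and 34.3, 23.3 and 34.5 CPM at C3 (log2 change 2.35, SE 0.43, edgeR adjusted p = 6.71e-05). The defining set of 8 such features summed to between 77.7 and 115 CPM at C1 and to between 132 and 179 CPM at C3, and EPCAM and CFTR were at 0 in all 6 libraries. Stromal and mesenchymal markers gave 4 rising, 2 falling and 21 uncalled features of 27. That was 14.8% rising and 7.41% falling, against 5.44% and 6.46% of all features tested. The rising ones were both TIMP1 probes, 1 of 3 FN1 probes and CDH2, and the falling ones were 1 probe each of DCN and COL3A1. The 27 features summed to between 6235 and 7536 CPM at C1 and to between 10264 and 11569 CPM at C3, and TIMP1 and FN1 were among the 50 most abundant features at C1. The called FN1 probe, of the matrix protein fibronectin, had means of 1373 CPM at C1 and 2105 CPM at C3. The narrower defining set of 9 stromal features summed to between 180 and 246 CPM at C1 and to between 181 and 233 CPM at C3. COL3A1 fell 3.94-fold and DCN 2.35-fold, both calls that were lost in most left-out settings (adjusted p 0.161 for COL3A1 without batch 1 and 0.227 for DCN without batch 3). VWF, CDH5, PTPRC, CD163 and MARCO, of the sets that define endothelial cells and macrophages or blood cells, were at 0 in all 6 libraries. In the same sets, 1 probe of PECAM1 had 1.77, 4.01 and 1.27 CPM at C1 and 0, 1.08 and 0 CPM at C3 and was not tested. CD14 had 9.75, 4.93 and 11.2 CPM at C1 and 5.22, 3.79 and 6.78 CPM at C3 and was not called. CD68 fell 1.85-fold, a call lost in 6 of 9 such settings (adjusted p 0.232 without the C1 library of batch 1), and KDR, the single endothelial feature tested, was not called at 0.80 (adjusted p 0.5). Of the hepatocyte set 8 of 9 features fell, HNF4A being the other. In lysates of whole wells, a lower share of hepatocyte-like cells and less hepatocyte RNA per cell cannot be told apart, and the part of either in the falls above was not tested. The part of stromal or mesenchymal RNA in the rises was not tested.

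C3 lay in the middle of a range in which the number of calls against C1 rose with concentration. Against C1, 48 features (0.385%) were called at C2 (3.43 µM), 4081 (32.8%) at C4 (30.87 µM) and 4840 (38.8%) at C5 (44 µM). These comparisons share the C1 libraries. ALB had means of 24221 ± 4765, 23468 ± 3151, 5163 ± 800.0, 1429 ± 94.8 and 1277 ± 347 CPM (SD, n = 3) from C1 to C5, so the step between C2 and C3 was the widest. BAAT had 1019.5 ± 145, 832 ± 123, 34.6 ± 4.59, 10.7 ± 5.59 and 17.1 ± 3.65 CPM, with most of its fall between C2 and C3. CYP7A1 had 56.5 ± 17.8 CPM at C1, 19.2 ± 4.32 at C2 and 4.17 ± 2.69 at C3, and its log2 change from C1 to C2 was -1.55 (edgeR adjusted p = 0.0351). MT2A went from 131 ± 33.1 CPM at C1 and 117 ± 34.2 at C2 to 416 ± 45.7 at C3 and 2004 ± 1.49 at C5 (log2 difference C5 minus C3 2.27, edgeR adjusted p = 1.01e-14). C15orf48 had 103 ± 3.45 CPM at C3 and 91.6 ± 8.01 at C5, a difference that was not called (log2 difference C5 minus C3 -0.16, edgeR adjusted p = 0.66).

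Some genes were higher at C3 and lower again at C5. Of all features tested, 13.2% were called lower and 8.48% higher at C5 than at C3. GPAM had 105 ± 18.0 CPM at C1, 235 ± 31.9 at C3 and 17.2 ± 2.17 at C5 (SD, n = 3; log2 difference C5 minus C3 -3.76, edgeR adjusted p = 5.07e-18). PLIN2 had 69.2 ± 8.99, 159 ± 7.20 and 35.7 ± 4.32 CPM at these levels (log2 difference C5 minus C3 -2.16, edgeR adjusted p = 2.32e-11). MYC had 110.2 ± 10.8, 173 ± 23.7 and 85.5 ± 16.2 CPM (log2 difference C5 minus C3 -1.02, edgeR adjusted p = 2.98e-05) and PPARGC1A had 117 ± 17.2, 179 ± 12.5 and 65.8 ± 6.08 CPM (log2 difference C5 minus C3 -1.45, edgeR adjusted p = 3.89e-08). At C2, GPAM already had 207 ± 35.2 CPM and was called against C1 (log2 change 0.97, edgeR adjusted p = 0.00198). PLIN2 had 118 ± 27.7 CPM at C2 and was called there too (log2 change 0.78, edgeR adjusted p = 0.0457). MYC and PPARGC1A were not called at C2 against C1. A gene higher at C3 than at C1 and C5 had to be high in the C3 libraries, which enter both comparisons. HDAC3 followed another course, with 63.3 ± 10.8 CPM at C1, 78.9 ± 3.24 at C3 and 280.4 ± 20.3 at C5 (log2 difference C5 minus C3 1.83, edgeR adjusted p = 1.6e-10). HNF4A had 12.6 ± 1.82 CPM at C3 and 1.05 ± 0.909 at C5 (log2 difference C5 minus C3 -3.53, edgeR adjusted p = 0.000109).

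**Figure D4:**
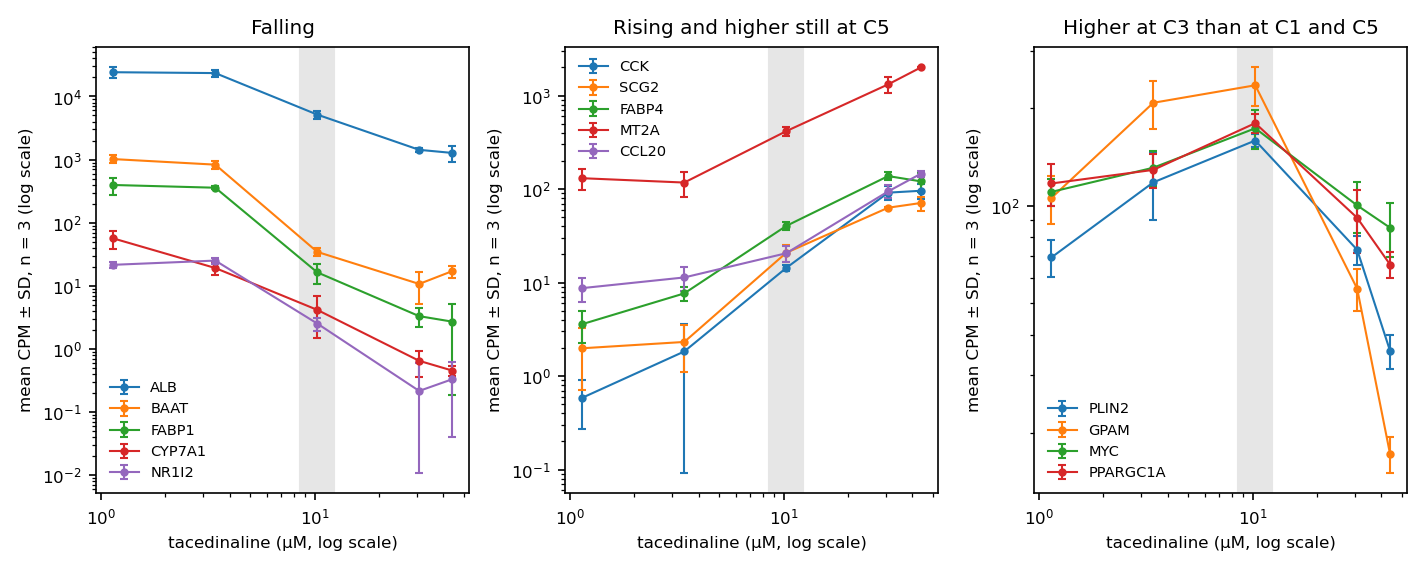
Mean CPM ± SD of 3 libraries (log scale) against the tacedinaline concentration (log scale), with C3 shaded and lower error bars cut short where they would pass 0. ALB, BAAT, FABP1, CYP7A1 and NR1I2 are lower at C3 than at C1 and lower still at C5, CCK, SCG2, FABP4, MT2A and CCL20 are higher at C3 and higher still at C5, and PLIN2, GPAM, MYC and PPARGC1A are higher at C3 than at C1 and C5.

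The same step from C1 to C3 was compared with that of mocetinostat, another benzamide (0.177222 to 1.595 µM), by testing the difference of the changes in a model of both chemicals. The concentrations differ, and mocetinostat was on another plate, so chemical, concentration and plate cannot be told apart. Of 13987 features, 5 were called different (0.0357%), 4 of them higher with tacedinaline (0.0286%) and 1 lower (0.00715%). At an unadjusted p under 0.05 there were 693. The count was 10 with the batch as a block, 20 with DESeq2 and 21 without the filter on low counts. In this model 903 features (6.46%) were called for tacedinaline and 2086 (14.9%) for mocetinostat. CYP3A4, the main drug-oxidising P450 of liver, whose probes may share reads with its close paralogs, had 837, 539.6 and 455 CPM at C1 and 140.1, 134 and 67.8 CPM at C3 with tacedinaline. With mocetinostat the probe had 636, 687 and 522 CPM at C1 and 13.7, 22.8 and 13.7 CPM at C3, so it fell in both and further there (difference 2.77, SE 0.48, edgeR adjusted p = 0.0142). The other CYP3A4 probe was not among the 5 features called different. CXCL13, a chemokine for B cells, had 308, 205 and 288 CPM at C1 and 102, 95.6 and 55.1 CPM at C3 with tacedinaline and 519.7, 421 and 421.6 CPM at C1 and 14.6, 15.5 and 18.8 CPM at C3 with mocetinostat (difference 3.14, SE 0.50, edgeR adjusted p = 0.00493). IL1R2, a decoy receptor of interleukin 1, had 353, 295 and 349 CPM at C1 and 362, 354 and 349 CPM at C3 with tacedinaline. It had 633, 583 and 660.0 CPM at C1 and 203, 187 and 226 CPM at C3 with mocetinostat (difference 1.70, SE 0.22, edgeR adjusted p = 0.000288). KCNN2, a calcium-activated potassium channel, rose with both, from a mean of 87.8 to 170.1 CPM with tacedinaline and from 88.5 to 441 CPM with mocetinostat (difference -1.36, SE 0.26, edgeR adjusted p = 0.0443). ACSL5, an acyl-CoA synthetase, had means of 902 and 919 CPM with tacedinaline and 1634 and 769 CPM with mocetinostat (difference 1.11, SE 0.22, edgeR adjusted p = 0.0443). The C1 libraries of the chemicals did not overlap for CXCL13, IL1R2 and ACSL5, each higher at C1 of mocetinostat. Without batch 1 or without batch 2 edgeR called no feature different, at 460 and 449 unadjusted p under 0.05.

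The same test against vorinostat, a hydroxamate with a different zinc-binding group that was on the same plate (0.404778 to 3.643 µM), called 178 of 12796 features different (1.39%). There were 58 higher with tacedinaline (0.453%) and 120 lower (0.938%), and the counts without batches 1, 2 and 3 were 36, 94 and 101. Both changes were fitted in this model, with 1430 calls (11.2%) for tacedinaline and 850 (6.64%) for vorinostat. The concentrations differ here too, so chemical and concentration cannot be told apart in the differences below. Among plasma proteins 12 of 31 features were lower with tacedinaline, with a median log2 change of -1.79 against -0.95 with vorinostat. In coagulation and complement factors 7 of 33 were lower (medians -1.95 and -1.07), and in phase II enzymes 9 of 33 (medians -1.06 and -0.36). ARG1 had 99.4, 49.5 and 54.0 CPM at C1 and 0.437, 2.73 and 2.47 CPM at C3 with tacedinaline. With vorinostat it had 82.6, 120.4 and 72.4 CPM at C1 and 38.2, 18.9 and 58.7 CPM at C3 (difference -3.92, SE 0.63, edgeR adjusted p = 6.01e-05), and the C3 groups of the chemicals did not overlap. F13B, a subunit of coagulation factor XIII, had 44.4, 35.0 and 41.5 CPM at C1 and 0.437, 2.73 and 1.85 CPM at C3 with tacedinaline. It had 32.0, 45.7 and 37.0 CPM at C1 and 31.0, 24.0 and 15.4 CPM at C3 with vorinostat (difference -3.91, SE 0.72, edgeR adjusted p = 0.00066). UGT2B15 had no count at C3 of tacedinaline and 5.37, 6.31 and 8.38 CPM at C3 of vorinostat (edgeR adjusted p = 0.00971).

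Features higher with tacedinaline than with vorinostat included SCG2, FOXO6 and ARNTL. SCG2 had 1.75, 1.05 and 1.95 CPM at C1 and 4.17, 0 and 0 CPM at C3 with vorinostat, against the rise described above with tacedinaline (difference 3.58, SE 0.96, edgeR adjusted p = 0.0413). FOXO6, a forkhead factor, had 7.10, 3.69 and 7.68 CPM at C1 and 42.3, 51.3 and 42.5 CPM at C3 with tacedinaline. It had 4.66, 2.61 and 4.87 CPM at C1 and 6.56, 2.52 and 4.89 CPM at C3 with vorinostat (difference 2.64, SE 0.67, edgeR adjusted p = 0.0266), where it was not called (edgeR adjusted p = 0.854). ARNTL, the clock factor BMAL1, had means of 8.43 and 17.3 CPM with tacedinaline and 10.1 and 2.56 CPM with vorinostat (difference 2.95, SE 0.69, edgeR adjusted p = 0.0127). Its change with tacedinaline alone did not pass the threshold (edgeR adjusted p = 0.137).

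**Figure D5:**
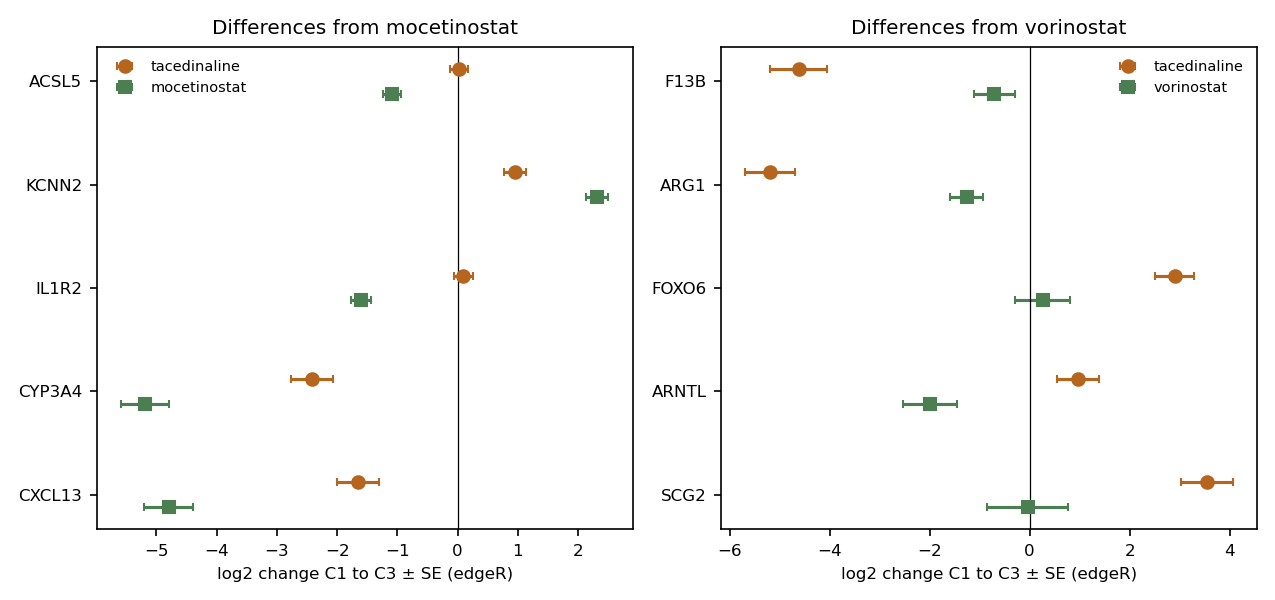
Fitted log2 change from C1 to C3 with its SE for features named for a difference between chemicals, tacedinaline as circles and the other chemical as squares. On the left CXCL13, CYP3A4, IL1R2 and ACSL5 lie further down with mocetinostat and KCNN2 further up, and on the right ARG1 and F13B lie further down with tacedinaline than with vorinostat. UGT2B15 is left out because it had no count at C3 of tacedinaline.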

How the data were processed

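The deposited table holds unnormalised counts of reads for each TempO-Seq probe in 118 libraries. The submitters' processing notes name bcl2fastq 2.20.422, fastp 0.23.2, STAR 2.7.10b and DESeq2 1.38.0, without their roles, and the genome build is not given in the sources used here. Of 22069 rows, 22068 were used. The last row, SEC13, lacked a value in 88 libraries, so the table may be incomplete. The paper supplied with the data describes another experiment and gave style only.

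The 15 tacedinaline libraries were fitted together in R 4.3.3 with edgeR 4.0.16 (filterByExpr, TMM scaling, quasi-likelihood F test, Benjamini-Hochberg adjustment over all features tested), and C3 was contrasted with C1. SE was taken from the log2 change and its F statistic. Batch-wise changes used log2 CPM with a prior count of 2. A fold against a group without counts is a bound from 3 counts per library. Counting intervals (95%, exact, on summed counts) cover counting error only, since reads are not independent molecules. Differences between chemicals were interaction terms in models of 30 libraries. Alternatives were DESeq2 1.42.0, other scalings and filters, the batch as a block, and leaving out batches or libraries. The fitting code was tested on simulated counts, for C3 against C1 and for the difference from vorinostat only.

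The replicate numbers are HepaRG batches in the labels, and so pair the samples. Deviations of same-batch C1 and C3 libraries from their group means correlated at 0.0494 to 0.0940, and over all 30 same-batch pairs of tacedinaline the median was 0.0162, against -0.00529 in 60 other pairs. No 2 libraries were copies (chi-square per degree of freedom at least 3.32 within groups).

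The members, the 34 gene lists and the tests were chosen with earlier results of these data known. Named were the 10 widest rises and falls called, alike in all 3 batches and at 10 CPM or more, the 5 most abundant of each direction with a fold of at least 2, and up to 3 per direction in each list by p-value. Fixed additions were HDAC1, HDAC2, HDAC3, HDAC8, H1F0, CDKN1A, ALB and HNF4A, and 3 per direction for each difference between chemicals. ACSL5, the remaining feature called against mocetinostat, was added to these. SERPINA1, TTR, FOXA1, NR1I3, GADD45A, SAA2, HSPA5, DNAJB9, XBP1, DDIT3, FN1, AXIN2 and REST fell outside this rule and were chosen after their values were seen. Symbols matched RefSeq in 96.6%. Some features that the rule names are not reported here.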

Additional observations from a re-analysis of the deposited data

Results flagged for a closer look

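These results were marked because the change from C1 to C3 differed between tacedinaline and another chemical in a test of the difference itself, with edgeR. Against mocetinostat 5 features differed. They were CXCL13 (difference of log2 changes 3.14), CYP3A4 (2.77), IL1R2 (1.70), ACSL5 (1.11) and KCNN2 (-1.36), each in the same direction in 3 of 3 batches. Against vorinostat 178 features differed. The widest named differences were SCG2 (3.58), ARNTL (2.95), FOXO6 (2.64), ARG1 (-3.92) and F13B (-3.91). UGT2B15 had a fitted difference of -7.04, which depends on the prior count because it had no count at C3 of tacedinaline. Concentrations differed between the chemicals in both comparisons.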

How the results depend on the processing

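The call counts (1483, with 678 rising and 805 falling) stayed within 1.5-fold with the replicate block (1494, 674 and 820), DESeq2 (1639, 716 and 923), RLE scaling, upper-quartile scaling, no filter on low counts, no minimum fold and the 6 libraries alone (1805). With library totals alone 1071 features rose, and 1312 of the calls were shared. Leaving out a batch or a library gave 923 to 1284 calls, 387 to 586 rising and 536 to 698 falling, lowest without batch 2. The replicate block changed no call among the named features. The difference from mocetinostat, 5 features, was 10 with the replicate block, 20 with DESeq2, 21 without the filter, and 0 to 4 without a batch. The difference from vorinostat, 178 features, was 206 with the replicate block and 36 to 101 without a batch. Among the 125 named features called, 96 kept their call in all 9 left-out settings. HDAC1 turned negative with the replicate block (-0.0066), DESeq2 (-0.012), RLE scaling (-0.016), no filter (-0.026) and the 6 libraries alone (-0.0065), and in left-out settings it ranged from -0.220 to 0.258, and KDR was -0.115 without batch 2. The causes were not tested. With 3 libraries per group and the C1 library of batch 1 at 1243102 counts, features with few counts are the least certain.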
